A study of Mus musculus with 6 samples.

Results

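The start sites of genes in mouse neural stem cells (NSCs) were sorted by 2 histone modifications, trimethylation of lysine 4 (H3K4me3) and of lysine 27 (H3K27me3) of histone H3. A gene counted as marked when any deposited peak of that modification lay within 1000 bp of its start site, which for genes on the plus strand is the annotated start and for genes on the minus strand the annotated end. Of the 18778 genes named in the deposited gene tables, 11617 had H3K4me3 only, 1997 had H3K27me3 only, 1601 had both and 3563 had neither. Neuron tables added 1616 gene positions to this set and nothing else from neurons was used.

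The series holds 6 chromatin immunoprecipitation sequencing (ChIP-seq) samples, and 3 of them are used here: NSC H3K4me3, NSC H3K27me3 and, through the read counts in the peak lists, the NSC input. The NSCs were C57BL/6 cells derived from embryonic stem cells, at passages 25 to 30, kept in Euromed-N with N2 and 10 ng/ml each of the growth factors FGF2 and EGF, at differentiation day 0 and negative for the RedStar reporter. Fixation was in 1% formaldehyde and shearing to about 300 bp, with an Active Motif antibody for H3K4me3 and an Upstate antibody for H3K27me3. All values therefore come from 1 cultured, ES-cell-derived population with 1 library per antibody, so that no difference given here has a replicate check and no test was made.

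H3K4me3 is placed around start sites by the MLL and SETD1 complexes and is found at most promoters of expressed genes. H3K27me3 is placed by EZH1 or EZH2 in Polycomb repressive complex 2 (PRC2), often over broad domains at silent developmental genes. Promoters carrying both modifications are called bivalent, a state known from embryonic stem cells and common at regulators of lineages that the cell has not entered. A peak call in a population cannot tell whether both modifications lie on the same chromatin, in different cells or on different alleles.

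Promoter sequences at genes of each state show the kind of DNA behind the calls. Each line is the 200 bases before the start site, 5′ to 3′ on the gene's strand, from RefSeq on GRCm38.p6, with every CG dinucleotide in capitals. The genes were chosen after their values were seen, to set CG-dense beside CG-poor starts. Sox2 (chr3:34649795-34649994, plus strand) and Nes (chr3:87970893-87971092, plus strand) had H3K4me3 only. Neurog1 (chr13:56252181-56252380, minus strand) and Wnt1 (chr15:98789657-98789856, plus strand) had both. Sox1 (chr8:12395319-12395518, plus strand), Krt77 (chr15:101869706-101869905, minus strand) and Olfr63 (chr17:33268526-33268725, plus strand) had H3K27me3 only, and Gfap (chr11:102897201-102897400, minus strand) had neither.
Sox2: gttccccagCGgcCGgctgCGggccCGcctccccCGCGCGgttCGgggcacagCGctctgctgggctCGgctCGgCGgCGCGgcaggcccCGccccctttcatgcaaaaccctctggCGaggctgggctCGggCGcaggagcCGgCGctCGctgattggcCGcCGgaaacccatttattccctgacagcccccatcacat
Nes: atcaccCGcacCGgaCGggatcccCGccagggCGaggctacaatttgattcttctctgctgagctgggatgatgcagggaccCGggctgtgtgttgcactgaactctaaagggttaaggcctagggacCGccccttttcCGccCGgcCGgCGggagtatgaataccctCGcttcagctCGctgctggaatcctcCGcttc
Neurog1: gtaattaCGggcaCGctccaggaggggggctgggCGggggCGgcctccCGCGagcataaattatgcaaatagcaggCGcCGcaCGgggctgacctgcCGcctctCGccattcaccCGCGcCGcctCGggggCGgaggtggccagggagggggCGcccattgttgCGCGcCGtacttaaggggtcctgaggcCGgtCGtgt
Wnt1: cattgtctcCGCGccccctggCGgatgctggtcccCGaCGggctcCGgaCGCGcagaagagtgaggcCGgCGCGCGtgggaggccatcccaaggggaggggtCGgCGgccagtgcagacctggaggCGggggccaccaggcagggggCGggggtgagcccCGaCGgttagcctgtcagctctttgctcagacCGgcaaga
Sox1: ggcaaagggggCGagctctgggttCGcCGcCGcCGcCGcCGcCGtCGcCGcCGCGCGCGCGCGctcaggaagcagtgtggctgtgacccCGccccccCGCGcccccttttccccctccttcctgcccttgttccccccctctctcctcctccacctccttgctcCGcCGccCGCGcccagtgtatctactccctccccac
Krt77: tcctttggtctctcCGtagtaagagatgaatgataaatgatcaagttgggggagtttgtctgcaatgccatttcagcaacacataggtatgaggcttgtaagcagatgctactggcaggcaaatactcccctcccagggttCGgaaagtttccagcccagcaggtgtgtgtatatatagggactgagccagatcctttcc
Olfr63: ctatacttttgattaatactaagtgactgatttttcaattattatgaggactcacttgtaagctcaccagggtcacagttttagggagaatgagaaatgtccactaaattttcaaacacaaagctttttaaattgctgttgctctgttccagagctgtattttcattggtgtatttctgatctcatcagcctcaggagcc
Gfap: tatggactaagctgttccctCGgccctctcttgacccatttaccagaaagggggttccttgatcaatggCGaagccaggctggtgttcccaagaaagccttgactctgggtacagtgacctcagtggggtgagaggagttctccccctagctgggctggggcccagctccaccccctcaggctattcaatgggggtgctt

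The stretches of Sox2, Neurog1, Wnt1 and Sox1 held 23, 22, 19 and 23 CG dinucleotides. Nes held 14, Krt77 and Gfap 2 each, and Olfr63 held 0. The 3 genes with H3K27me3 only ran from one of the densest stretches to one with none. The choice of genes fixed this contrast, and Gfap alone stood for neither. Among the matched promoters described below, CpG-rich windows were found in each of the states, at 23.2% with neither.

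By share, H3K4me3 alone was the state of 61.9% of all genes (95% exact binomial interval 61.2 to 62.6, counting error only), H3K27me3 alone of 10.6%, both of 8.53% and neither of 19.0%. Among the 14600 genes with a symbol the shares were 70.3%, 8.93%, 9.30% and 11.4%, and these are the background for each gene class below. H3K27me3 stood at 12.1% (11.6 to 12.7) of the 13218 start sites with H3K4me3, against 19.2% of all 18778 genes. Read from the other side, H3K4me3 stood at 44.5% (42.9 to 46.1) of the 3598 start sites with H3K27me3, against 70.4% of all genes. With the peak that the gene tables name, in place of any listed peak, 436 genes had both and 1017 had H3K27me3 only. For class counts by the tables' own peak given below, the background is thus 436 of 18778 genes with both, not 9.30%. The tables name genes near peaks, so the genes with neither are an incomplete set and the shares are not shares of the genome. Adding the missing unmarked genes would lower the 19.2% and 70.4% of all genes, but not the 12.1% and 44.5%. The gaps between these shares thus depend on which genes the tables name. Whether the modifications avoid each other at start sites was not tested.

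The H3K4me3 list held 30416 peaks with 3623654 reads over 57.35 Mb, and the H3K27me3 list held 26539 domains with 3272324 reads over 173.2 Mb. The immunoprecipitated depth inside peaks was 63.2 and 18.9 reads per kb, and these were not compared between antibodies. Only 35.5% of the H3K4me3 peaks and 11.4% of the H3K27me3 domains marked a start site of these genes. Chromosome X had fewer input reads than chromosomes 2 to 19, with 6.85 against a median of 10.4 input reads per kb of H3K4me3 peak and 4.84 against 8.84 per kb of H3K27me3 domain. Chromosome 1 had 14.5 and 12.9 input reads per kb, and the highest of chromosomes 2 to 19 were 14.5 (chromosome 11) and 10.1 (chromosome 6). The part of this depth in the states of genes on chromosomes 1 and X was not tested.

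The labelled cell type was checked against its defining genes. Of 11 NSC markers, 8 had H3K4me3 only, a share close to the 70.3% of all genes with a symbol, among them Nes, Sox2, Olig2, Hes5, Vim, Fabp7 and Slc1a3. Msi1, an RNA-binding protein of neural progenitors, had both, Sox1 had H3K27me3 only and Pax6 had neither. The pluripotency factors Pou5f1 and Nanog were in none of the tables, as were 7 of the 10 pluripotent cell markers in all, and of the remaining 3 Utf1 and Fgf4 had H3K27me3 only and Esrrb had neither. Of the neuron markers in the tables Tubb3, Mapt and Syt1 had both, Stmn2 had H3K27me3 only, and Dcx and Snap25 had neither. Other cell types were sparse: of the astrocyte markers S100b and Slc1a2 had H3K4me3 only, and Gfap and Aldh1l1 had neither. Mbp of oligodendrocytes, Csf1r of microglia and Cdh5 of endothelium had H3K27me3 only, Kdr of endothelium had both, and Pdgfra and Pecam1 had neither.

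Start sites with both marks had narrower and shallower H3K4me3 peaks than those with H3K4me3 alone. The median H3K4me3 peak was 2400 bp wide (quartiles 1800 to 3200) in the 11617 genes with H3K4me3 only and 1600 bp (1200 to 2200) in the 1601 genes with both. Median immunoprecipitated reads in the peak were 246 and 104, or 101 (81.5 to 119) and 60.0 (40.4 to 86.2) reads per kb. Genes with both thus had fewer reads per peak and fewer reads per kb of it, and the quartile ranges of the latter overlapped slightly. Input in the same peaks was 10.7 and 9.0 reads per kb, and the authors' own fold over input was 9.63 and 7.12. Counted once per distinct peak, the medians were 2200 and 1600 bp over 9428 and 1392 peaks.

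The H3K27me3 domain differed little in width between the states that carry it. Its median was 8800 bp (5200 to 15200) in the 1997 genes with H3K27me3 only and 7800 bp (4400 to 15200) in the genes with both. Depth went the other way from width, with 18.9 reads per kb (15.9 to 23.5) at H3K27me3-only genes and 22.3 (18.5 to 28.7) at genes with both. The authors' fold was 3.02 and 3.58 at input depths of 8.65 and 8.75 reads per kb. The quartile ranges of both measures overlapped between the states.

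**Figure D1:**
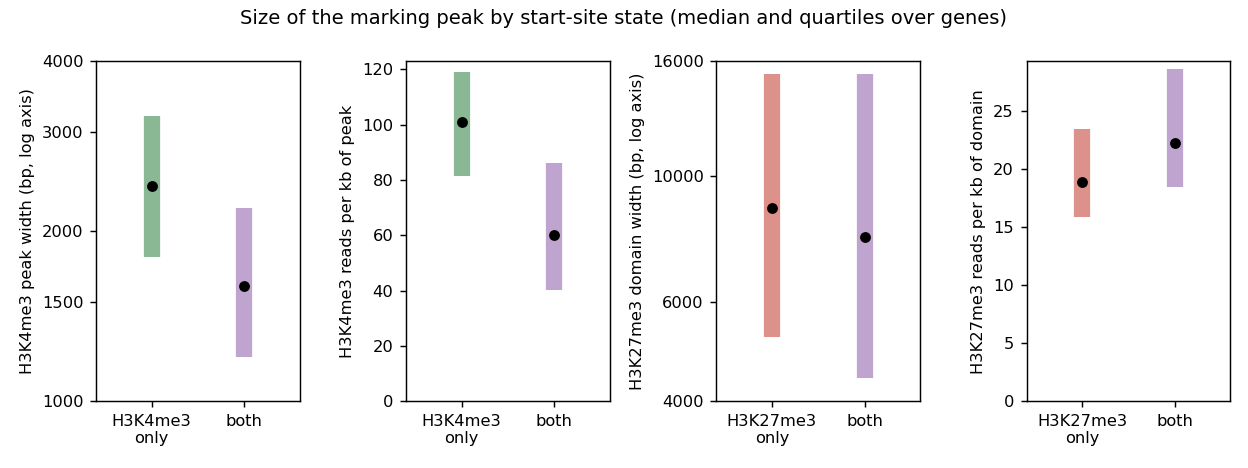
Width (log axes, bp) and immunoprecipitated reads per kb of the peak that marks the start site, by state, for H3K4me3 on the left and H3K27me3 on the right; points are medians and bars run between the quartiles over genes. The H3K4me3 medians are 2400 and 1600 bp and 101 and 60.0 reads per kb, while the H3K27me3 medians of 8800 and 7800 bp lie within each other's quartiles.

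The share of H3K4me3 start sites that also had H3K27me3 was larger where the H3K4me3 peak was narrower. At peaks up to 800 bp it was 40.9% (95% exact interval 35.7 to 46.4) of 342 genes, and at 1400 to 1600 bp it was 19.7% of 1910 genes. At 2200 to 2400 bp it was 9.15% and at 3200 to 4000 bp 4.17%. Above 4000 bp the share levelled, with 3.57% (2.46 to 5.00) of 896 genes up to 6000 bp and 3.70% (1.86 to 6.53) of 297 genes beyond. Sox8 was one of 11 genes with both marks in that widest class, with an H3K4me3 peak of 7400 bp.

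**Figure D2:**
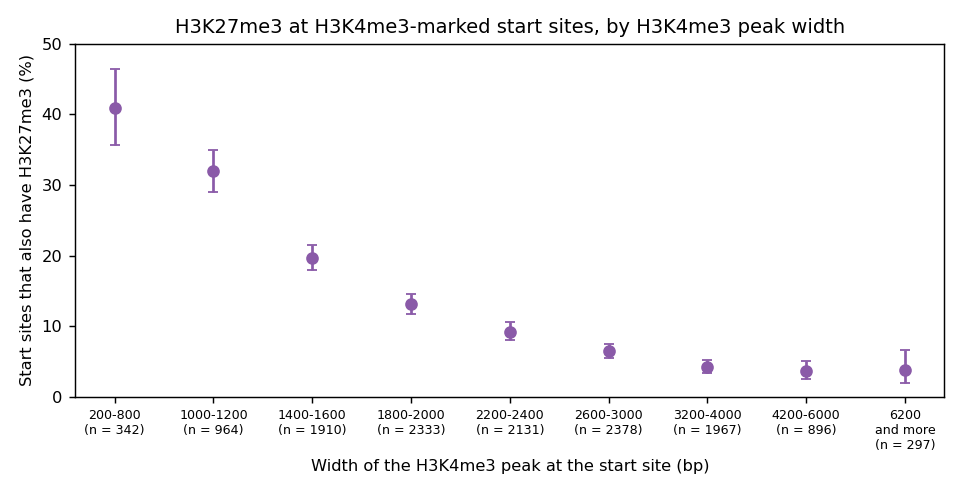
Percent of H3K4me3-marked start sites that also have an H3K27me3 domain, against the width class of the H3K4me3 peak in bp; points are shares, bars are 95% exact binomial intervals, and n is the number of genes. The share runs from 40.9% in the narrowest class to 3.57% at 4200 to 6000 bp and 3.70% above that.

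The same reading by H3K27me3 domain width was flat apart from the narrowest domains. H3K4me3 was present at 64.0% (58.4 to 69.3) of 314 start sites with a domain up to 3000 bp. In the wider classes it was present at 38.9% to 45.5%, and at 43.7% of 316 start sites with a domain over 30000 bp. These 316 genes lay in 173 domains, so neighbours share a domain and are not separate observations.

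Where both marks met, the H3K4me3 peak usually lay inside the domain. It was wholly inside in 1086 of 1601 genes (67.8%, 65.5 to 70.1), partly covered in 402 (25.1%) and beside the domain without overlap in 113 (7.06%). Both peaks covered the start site itself in 1039 genes. From the start site, the H3K4me3 peak reached a median of 634 bp upstream and 994 bp downstream in genes with both, against 849 and 1403 bp with H3K4me3 only. The domain covered the start site in 74.6% of genes with both and 85.1% of H3K27me3-only genes. Bmi1, a subunit of Polycomb repressive complex 1 (PRC1), is an example of the edge case, since its start site lay in a 3200 bp H3K4me3 peak and 755 bp from a domain of 1800 bp.

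Overlap of the 2 lists was also counted over all peaks. Of all H3K4me3 peaks, 10.9% shared at least 1 bp with an H3K27me3 domain, and 11.0% of all domains shared 1 bp with an H3K4me3 peak. Among the 3016 domains that marked a start site the share was 46.4% (44.6 to 48.2), and among the other 23523 it was 6.51% (6.20 to 6.83). Seen from H3K4me3 peaks the split was small, at 12.2% (11.6 to 12.8) of those that marked a start site and 10.2% (9.79 to 10.6) of the others. Of 444 domains that marked 2 or more genes, 94 held genes with both marks beside genes with H3K27me3 only.

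Genes with both marks had the highest median length, and which state had the lowest depended on whether genes without a symbol were counted. Among genes with a symbol the median length from start to end was 34605 bp with both, 22452 bp with H3K4me3 only, 23066 bp with neither and 11756 bp with H3K27me3 only. Over all genes it was 27786 bp with both, 19470 bp with H3K4me3 only, 6181 bp with H3K27me3 only and 3854 bp with neither. The distance from an H3K27me3-only start site to the nearest H3K4me3 peak had a median of 35982 bp (quartiles 13391 to 85304).

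Genes near the limit of 1000 bp show what the rule separates. For H3K4me3, Vpreb3 lay just inside at 998 bp, and Tmem91 and Kif7 just outside at 1015 and 1023 bp. For H3K27me3, Epb4.1l2 and Svs4 were inside at 996 bp each, with Pinx1 and March3 outside at 1002 and 1003 bp. Shh, the Hedgehog ligand that patterns the ventral neural tube, fell to H3K27me3 only by this margin: an H3K4me3 peak of 1800 bp with 140 immunoprecipitated and 17 input reads lay 1042 bp from its start site.

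The 5 genes with the widest marking peaks of each state are given next. The widest H3K4me3-only peak was at Sfi1, which encodes a centrosomal protein, and spanned 77000 bp with 15523 immunoprecipitated and 15201 input reads, a fold of 1.05. With input as high as the immunoprecipitate, that entry holds almost no enrichment. The next were 2610017I09Rik at 20600 bp (2065 and 246 reads), Zfp110 at 18800 bp, the kinase gene Map4k4 at 17200 bp and Agap1 at 14400 bp. The widest domains at H3K27me3-only genes were those of Hoxc6 (239200 bp), Hoxd4 (143400 bp), Gm10831 (136200 bp), Hoxb4 (127800 bp) and Prok2 (120800 bp). Genes with both marks shared 3 of the same domains: Hoxc9 lay in that of Hoxc6, Hoxd3 in that of Hoxd4 and Gpr27, an orphan receptor gene, in that of Prok2. The other widest were at Hoxa13 (107400 bp) and Fev (99400 bp), a factor of serotonergic neurons.

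**Figure D3:**
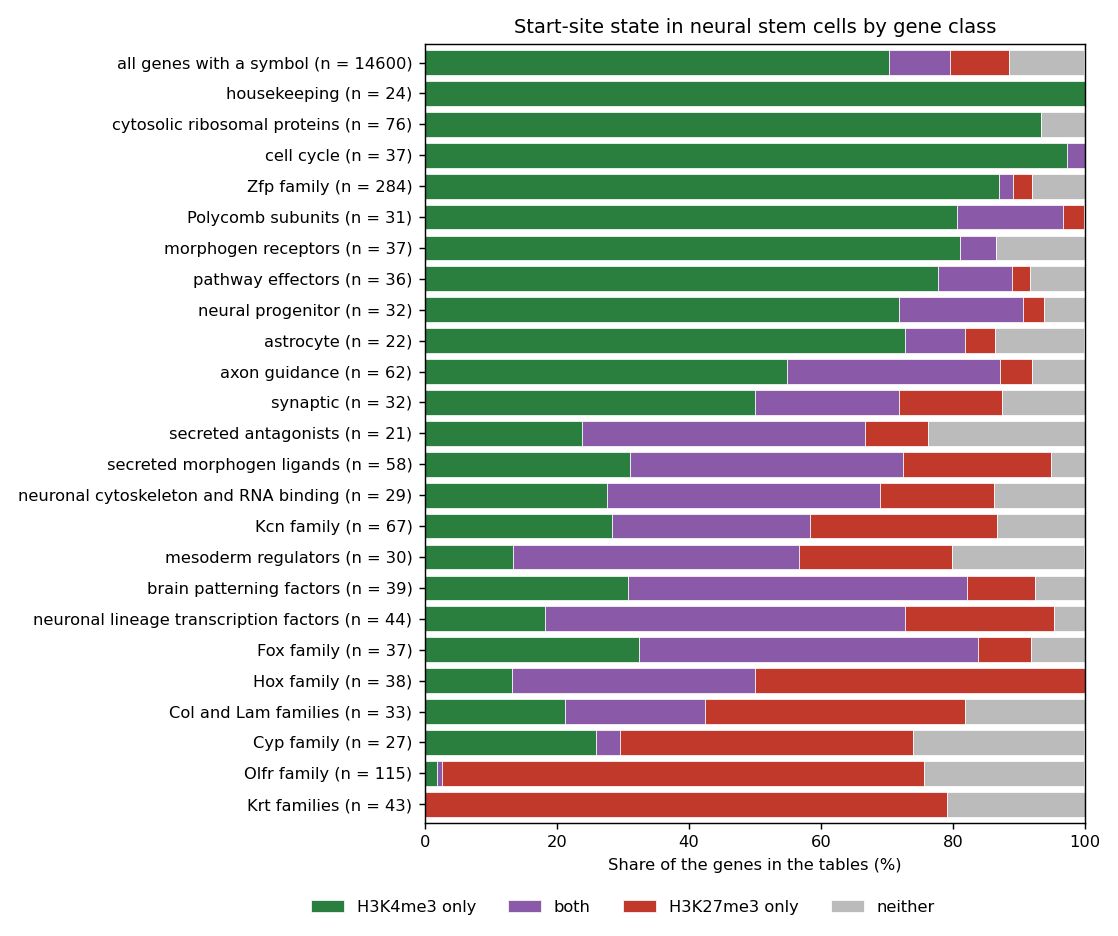
Share of genes in each start-site state (x axis, percent of the class members in the tables) for all genes with a symbol and 24 gene classes, with the number of genes in parentheses. Housekeeping, ribosomal and cell cycle classes are almost wholly H3K4me3 only, neuronal and patterning factors are mostly marked by both, and keratins and olfactory receptors are mostly H3K27me3 only.

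Genes that every dividing cell uses carried H3K4me3 with hardly any H3K27me3. All 24 listed housekeeping genes in the tables had H3K4me3 only, against 70.3% of all genes with a symbol. Gapdh, a glycolytic enzyme, had a peak of 4800 bp with 742 immunoprecipitated and 72 input reads, and Actb, cytoplasmic actin, one of 4000 bp with 488 and 55. Of 37 cell cycle genes 36 had H3K4me3 only, among them Ccnd1 (cyclin D1) with a 10800 bp peak of 1040 and 111 reads. The exception was Cdk6, a G1 kinase, which had both, with a domain of 34200 bp. The same state held 71 of 76 cytosolic ribosomal proteins, 73 of 76 mitochondrial ones, 34 of 36 proteasome subunits, 55 of 56 clustered histone genes and 247 of 284 Zfp zinc finger genes. The mitochondrial ribosomal gene Mrpl23, the proteasome gene Psmb9 and the histone gene Hist3h2ba had both, while 6 Zfp genes had both and 8 had H3K27me3 only. The gene Mir17hg, host of the miR-17 cluster, was the only one with a symbol of that kind and had H3K4me3 only.

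Of 13 CDK inhibitors and tumour suppressors, brakes on the cell cycle, 11 had H3K4me3 only and 2 had both. H3K27me3, with or without H3K4me3, was at 18.2% of all genes with a symbol, so these counts are near the background. Cdkn2a, a Polycomb target in many cell types that encodes the p16 and p19 proteins, had H3K4me3 only, with a 3400 bp peak of 306 immunoprecipitated and 37 input reads. Its nearest H3K27me3 domain lay 188643 bp away. The 2 with both were the imprinted inhibitor Cdkn1c, with a domain of 24200 bp, and Trp73, with one of 16600 bp.

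Genes of the modifying enzymes themselves mostly had H3K4me3 only, the state of 70.3% of all genes with a symbol. The shares were 80.6% for Polycomb subunits and H3K27 demethylases and 90.5% for H3K4 methyltransferase subunits and demethylases. Both marks were at 16.1% of the former and 0% of the latter, against 9.30%. Of 31 genes for Polycomb subunits and H3K27 demethylases 25 had H3K4me3 only, including Ezh2, the PRC2 methyltransferase, with a 3600 bp peak of 408 and 48 reads. Another 5 had both, and Cbx7, a PRC1 subunit that binds H3K27me3, had H3K27me3 only, with a domain of 8000 bp and 123 and 51 reads. Cbx2, a related PRC1 subunit, had both: 273 and 25 reads in a 2600 bp H3K4me3 peak and a domain of 5600 bp. Of 21 genes for H3K4 methyltransferase subunits and demethylases 19 had H3K4me3 only and 2 had neither.

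Neural progenitor genes carried wide H3K4me3 peaks. Of 32 listed, 23 had H3K4me3 only (71.9%, near the 70.3% of all genes with a symbol). Another 6 had both (18.8%, against 9.30%), of which 1 by the tables' own peak, 1 had H3K27me3 only and 2 neither. The H3K4me3 peaks of the listed genes had a median of 4800 bp. Olig2, a basic helix-loop-helix (bHLH) factor of ventral progenitors, had the widest of those named, 13400 bp at chr16:91218000-91231399 (mm9), with 1619 immunoprecipitated and 142 input reads. Sox2, which maintains progenitors, had 9800 bp at chr3:34547000-34556799 with 808 and 76 reads. These widths stand above the upper quartile of 3200 bp for H3K4me3-only genes. Nes, the intermediate filament nestin, had 4800 bp with 677 and 58 reads. The Notch target Hes5 had a peak of 5600 bp with 378 and 57 reads, and a domain of 8000 bp began 4680 bp from its start site.

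Sox1 and Pax6 stood apart from the other progenitor markers. The start site of Sox1, a SoxB1 factor of early neuroectoderm, lay in a domain of 39800 bp (chr8:12378800-12418599, mm9) with 1194 immunoprecipitated and 286 input reads. Its nearest H3K4me3 peak was 10154 bp away. Pax6, a dorsal progenitor factor, had a 3800 bp H3K4me3 peak of 299 and 37 reads that lay 5947 bp from the table's start site, a distance counted from the one start that the table gives. Lhx2, a cortical LIM factor, and Gli3, a Hedgehog effector, had both marks.

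**Figure D4:**
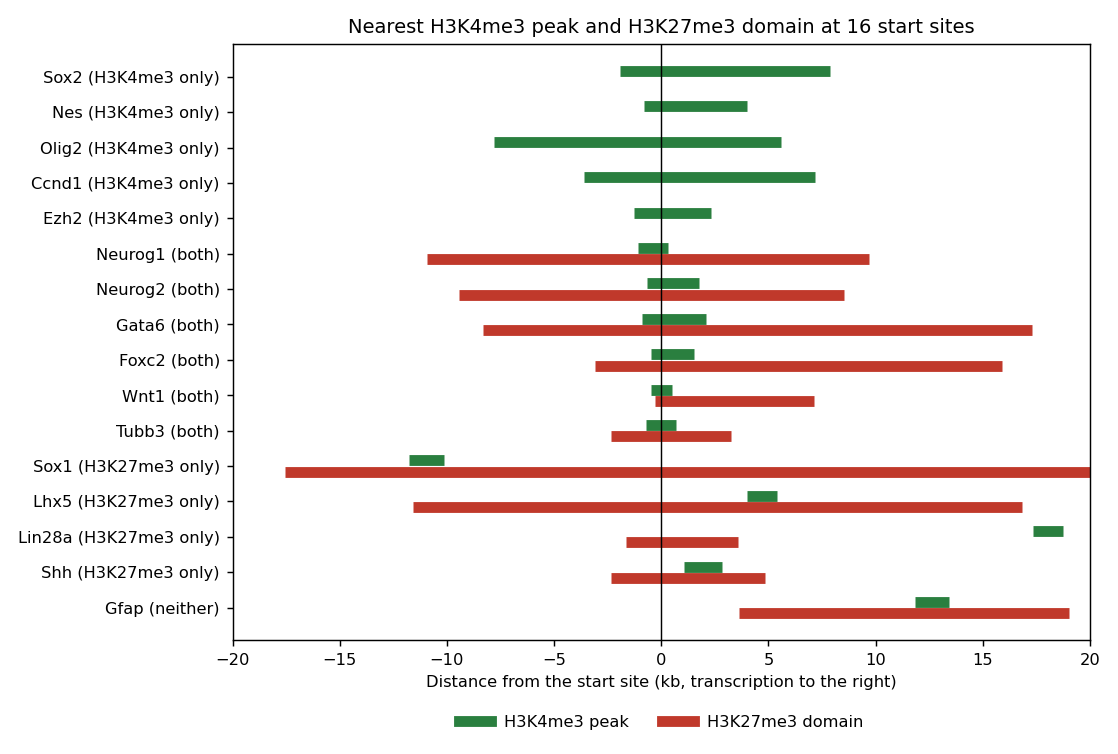
Nearest H3K4me3 peak (green) and H3K27me3 domain (red) at 16 start sites, as distance from the start site in kb along the direction of transcription, with the view ending at 20 kb on either side. Peaks of Sox2, Nes and Olig2 stand without a domain, those of Neurog1, Neurog2, Gata6 and Foxc2 lie inside wide domains, and the H3K4me3 peaks near Sox1, Lhx5, Lin28a, Shh and Gfap do not reach within 1 kb of the start.

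Transcription factors of the neuronal lineage mostly carried H3K27me3, with or without H3K4me3. Among 44 present in the tables, 24 had both (54.5%, against 9.30% of all genes with a symbol), 10 had H3K27me3 only, 8 H3K4me3 only and 2 neither. By the peak that the gene tables name, 11 of the 44 had both, against 436 of all 18778 genes. Neurog1, a proneural bHLH factor, had an H3K4me3 peak of 1400 bp with 64 immunoprecipitated and 10 input reads inside a domain of 20600 bp (chr13:56343600-56364199, mm9) with 866 and 160. Neurog2, its relative in the cortex, had 272 and 17 reads in 2400 bp inside a domain of 18000 bp with 592 and 148. The neurogenins thus differed, since Neurog1 and Neurog2 had both and Neurog3, which also drives pancreatic endocrine cells, had H3K27me3 only, with a 9400 bp domain of 250 and 49 reads. Neurod1, which acts after them, had H3K4me3 only, in a peak of 1800 bp with 81 and 23 reads. Lhx5, a LIM factor of early neurons, had a domain of 28400 bp with 1082 and 199 reads and an H3K4me3 peak 4021 bp from its start site. Dlx5, a factor of GABAergic neurons, had H3K27me3 only, while its relative Dlx2 and Nr4a2, a factor of dopamine neurons, had H3K4me3 only.

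By any listed peak, patterning factors of the brain were marked by both at a share close to that of the neuronal factors. They had more H3K4me3-only than H3K27me3-only members. Among 39 present, 20 had both (51.3%), 12 H3K4me3 only, 4 H3K27me3 only and 3 neither. By the peak that the gene tables name, only 3 of the 39 had both, against 11 of 44 neuronal factors and 436 of all 18778 genes. Pax2, a factor of the midbrain-hindbrain boundary and the eye, had a peak of 1400 bp with 39 and 6 reads in a domain of 49400 bp with 2221 and 350. Six3 and Six6, of the eye and anterior brain, and Pax7 and Nkx2-9 were the 4 with H3K27me3 only. Zic2, Zic5, Irx3 and Meis2 had H3K4me3 only, and the peaks of Meis2 and Zic2 were 7000 and 6000 bp wide.

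Regulators of other germ layers carried H3K27me3 with or without H3K4me3. Of 30 mesoderm regulators 13 had both, 7 H3K27me3 only, 6 neither and 4 H3K4me3 only. Both marks were at 43.3% and H3K27me3 alone at 23.3%, against 9.30% and 8.93% of all genes with a symbol. T (brachyury), which specifies early mesoderm, had an H3K4me3 peak of 800 bp with 35 immunoprecipitated and 5 input reads at 89 bp from its start and a domain of 5200 bp with 101 and 29. Foxc2 had 161 and 15 reads in 2000 bp inside a domain of 19000 bp, whereas its relative Foxc1 had H3K4me3 only, in 6200 bp with 531 and 40. Twist1 also had H3K4me3 only, and the heart factors Nkx2-5, Tbx5 and Tbx20 had H3K27me3 only. Of 16 endoderm regulators 7 had H3K27me3 only (43.8%), 4 both (25.0%), 3 H3K4me3 only and 2 neither. Gata6, a factor of primitive endoderm, had 85 and 19 reads in a 3000 bp H3K4me3 peak and 1117 and 176 in a domain of 25600 bp. Sox17, on chromosome 1, had H3K4me3 at a fold of only 1.89 (48 and 26 reads) in a domain of 36400 bp. Gata4, Cdx2 and Pdx1 had H3K27me3 only, and Cdx2 and Pdx1 lay in one domain of 58600 bp. Of 13 neural crest regulators 7 had both (53.8%), 4 H3K4me3 only and 2 H3K27me3 only (15.4%).

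Of 24 pluripotency genes 11 were present in the tables, with 3 in each marked state and 2 with neither. Each marked state thus held 27.3% of them. Among all genes with a symbol the shares were 70.3% for H3K4me3 only, 8.93% for H3K27me3 only and 9.30% for both. The Klf genes Klf2, Klf4 and Klf5 had H3K4me3 only. Lin28b, Sall4 and Tcfcp2l1 had both, and Fgf4, Utf1 and Lin28a had H3K27me3 only. Lin28a, an RNA-binding inhibitor of let-7 maturation, had the highest H3K27me3 fold of the named genes: 203 immunoprecipitated and 25 input reads in 5200 bp, a fold of 11.3. Its paralog Lin28b had an H3K4me3 peak of 1800 bp with 99 and 9 reads in a domain of 41600 bp. Of 12 germ line genes present, 4 had H3K4me3 only (33.3%), 3 H3K27me3 only (25.0%), 1 both (8.33%) and 4 neither.

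Signalling ligands and antagonists stood apart from all genes with a symbol, and receptors and effectors stood nearer to that background. Both marks were at 41.4% of ligands and 42.9% of antagonists, and at 5.41% of receptors and 11.1% of effectors, against 9.30%. H3K4me3 alone was at 81.1% of receptors and 77.8% of effectors, against 70.3%. Of 58 genes listed as ligands of the Wnt, Fgf, Bmp, Hedgehog, Nodal and Notch pathways 24 had both (41.4%), 18 H3K4me3 only, 13 H3K27me3 only and 3 neither. By the gene tables' own peak 8 had both. The list also holds the Fgf family members Fgf11 (H3K4me3 only), Fgf12 and Fgf13 (both) and Fgf14 (neither), which are not secreted ligands. Of 37 receptors of these pathways 30 had H3K4me3 only (81.1%), 2 both, 0 H3K27me3 only and 5 neither. The 2 receptors with both were Fzd6, a Wnt receptor, and Acvr1b, an activin receptor, with domain folds of 2.8 and 2.2. Intracellular effectors were close to the receptors, at 28 of 36 with H3K4me3 only, 4 with both, 1 with H3K27me3 only and 3 with neither. Secreted antagonists were close to the ligands, at 9 of 21 with both (2 by the tables' own peak), 5 with H3K4me3 only, 2 with H3K27me3 only and 5 with neither.

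Within the Wnt pathway, Wnt1, a ligand of the midbrain-hindbrain boundary, had 30 immunoprecipitated and 8 input reads in a 1000 bp H3K4me3 peak (chr15:98619800-98620799, mm9). Its domain of 7400 bp held 271 and 66 reads. Wnt3a had H3K27me3 only, in 18600 bp with 508 and 149 reads, and Wnt7b, a ligand of the developing forebrain, had H3K4me3 only, in 3200 bp with 324 and 21. Wnt ligands were thus found in each of the 3 marked states. Axin2, a feedback target of the pathway, had an H3K4me3-only peak of 7800 bp with 965 and 64 reads. Of the inhibitors, Dkk1 and Sfrp5 had H3K27me3 only and Sfrp1 had both.

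In the Notch and Hedgehog pathways, the ligand Dll1 had H3K4me3 only, in 5800 bp with 683 and 54 reads. Gli1, Gli2 and Gli3, the Hedgehog transcription factors, all had both. The domain of Gli1 held 49 and 17 reads in 2400 bp, that of Gli3 54 and 32 in 3600 bp, and that of Gli2, on chromosome 1, 141 and 124 in 9200 bp at a fold of 1.59. The domains of Gli1 and Gli3 were below the lower quartile of 4400 bp for all genes with both marks. That of Gli2 was above the median of 7800 bp for such genes, and the median for the neuronal lineage factors was 20300 bp. The Bmp antagonists Nog and Grem1 had both, with domains of 9600 and 14600 bp, and Fst, which binds activin, had H3K4me3 only.

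Genes of differentiated neurons were split across the states. Of 29 genes for neuronal cytoskeleton and RNA binding 12 had both, 8 H3K4me3 only, 5 H3K27me3 only and 4 neither. Both marks were at 41.4% of them and H3K4me3 alone at 27.6%, against 9.30% and 70.3% of all genes with a symbol. Tubb3, neuronal beta-tubulin, had 58 immunoprecipitated and 6 input reads in a 1400 bp H3K4me3 peak within a domain of 5600 bp (chr8:125933000-125938599, mm9) with 107 and 51. The neurofilament genes Nefl, Nefm and Nefh had both, with domains of 34800, 15400 and 15600 bp. Stmn2 and Elavl2 had H3K27me3 only, and the splicing factors Nova1 and Nova2 had H3K4me3 only. Of 32 synaptic genes 16 had H3K4me3 only, 7 both, 5 H3K27me3 only and 4 neither. Snap25, a synaptic SNARE protein, and Dcx, a microtubule protein of migrating neurons on chromosome X, had neither, with the nearest peak of either mark at 26011 and 30455 bp from the start site.

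Transmitter genes and potassium channels held H3K27me3-only genes at 27.5% and 28.4%, against 8.93% of all genes with a symbol. Both marks were at 30.4% of transmitter genes, 29.9% of potassium channels and 34.3% of calcium and sodium channels, against 9.30%. Of 69 transmitter receptors and transporters 21 had both, 19 H3K27me3 only, 18 H3K4me3 only and 11 neither. Chat, which makes acetylcholine, and Slc32a1, the vesicular GABA transporter, had H3K27me3 only, with 362 and 67 reads in 11000 bp and 504 and 136 in 18000 bp. Slc17a7, a vesicular glutamate transporter, had both, with only 44 and 5 reads in an 800 bp H3K4me3 peak. Gad1, which makes GABA, had neither, and its nearest peaks lay 8071 bp (H3K4me3) and 6871 bp (H3K27me3) away. Potassium channel genes were spread almost evenly, at 20 both (5 by the tables' own peak), 19 H3K27me3 only, 19 H3K4me3 only and 9 neither of 67. Calcium and sodium channels had 12 both, 4 H3K27me3 only (11.4%), 7 H3K4me3 only and 12 neither of 35. Solute carriers as a whole had 138 of 220 with H3K4me3 only (62.7%), 34 both (15.5%), 24 H3K27me3 only (10.9%) and 24 neither.

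Of 62 semaphorin, ephrin, slit and netrin ligands and receptors, which guide axons, 34 had H3K4me3 only, 20 both (32.3%, against 9.30% of all genes with a symbol), 3 H3K27me3 only (4.84%, against 8.93%) and 5 neither. The 3 with H3K27me3 only were Slit1 and Slit3, repellent ligands, and the ephrin receptor gene Epha6. Epha7 and Epha8 had both, with domains of 16600 and 25200 bp. Of 28 cadherins and unclustered protocadherins 11 had H3K4me3 only, including N-cadherin (Cdh2), 10 both, 5 H3K27me3 only and 2 neither. Collagens and laminins went the other way, with 13 of 33 in H3K27me3 only, 7 both, 7 H3K4me3 only and 6 neither. Col2a1, the cartilage collagen, had a domain of 22000 bp with 496 and 167 reads.

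Of 22 astrocyte genes 16 had H3K4me3 only (72.7%, near the 70.3% of all genes with a symbol), 2 both, 1 H3K27me3 only and 3 neither. Slc1a2, a glutamate transporter, had 222 and 20 reads in 3000 bp, and Nfix 210 and 16 in 2800 bp. Gfap, an intermediate filament of mature astrocytes, had neither, and a domain of 15400 bp with 232 and 133 reads began 3627 bp from its start. Of 9 oligodendrocyte genes present, 2 had H3K4me3 only (Olig1 and Cnp), 1 both (Fa2h), 3 H3K27me3 only (Mbp, Mobp and Ugt8a) and 3 neither.

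Terminal genes of other tissues were sparse in the tables. Of 8 blood and microglia genes 3 had H3K27me3 only, 3 neither, 1 both and 1 H3K4me3 only. Of 6 endothelial genes 3 had both, among them the VEGF receptors Flt1, Flt4 and Kdr, 1 had H3K27me3 only and 2 neither. Of 9 muscle and heart genes 5 had H3K27me3 only, 3 neither and 1 H3K4me3 only, and Myh1, Myh2 and Myh3, skeletal myosins, had domain folds of 2.7, 2.6 and 2.55. Of 6 liver and gut genes 3 had H3K27me3 only (Apob, Fgb and Pck1), 2 neither and 1 H3K4me3 only. Median domain folds were 2.60 for muscle and heart, 2.53 for liver and gut, 3.75 for blood and microglia and 3.54 for endothelium. The median was 3.02 for all H3K27me3-only genes and 6.14 for the neuronal lineage factors.

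The Hox genes, which pattern the trunk along its axis, sat in a handful of very wide domains. Of 38, 19 had H3K27me3 only, 14 both (5 by the tables' own peak) and 5 H3K4me3 only, and all H3K27me3-marked members lay in 5 domains, so they are far from separate observations. The HoxB domain spanned 127800 bp (chr11:96110800-96238599, mm9) with 5962 immunoprecipitated and 903 input reads, and Hoxb1, Hoxb2, Hoxb3 and Hoxb4 in it had H3K27me3 only. In the HoxA domain of 107400 bp, Hoxa7, Hoxa10, Hoxa11 and Hoxa13 also had H3K4me3, with 43 to 61 reads a peak. The 19 H3K4me3 peaks of the family, of members with both and with H3K4me3 only, had a median fold of 4.44. Outside the domain, Hoxa2, Hoxa4 and Hoxa5 had H3K4me3 only, and Hoxa5 had a peak of 3200 bp with 296 and 31 reads. The HoxA cluster was thus divided between its ends, with the anterior genes named here in one state and the posterior ones in the other.

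Both marks were at 51.4% of forkhead and 25.0% of Sox factors, against 9.30% of all genes with a symbol. Of 37 Fox genes 19 had both (51.4%; 11 by the tables' own peak), 12 H3K4me3 only, 3 H3K27me3 only and 3 neither. Foxa2, an endoderm and floor plate factor, had only 25 and 3 reads in an 800 bp H3K4me3 peak in a domain of 52000 bp with 2026 and 417. Of 16 Sox genes 9 had H3K4me3 only (56.2%, against 70.3% of all genes with a symbol), 4 both and 3 H3K27me3 only (18.8%, against 8.93%). Sox11 and Sox21 had H3K4me3-only peaks of 6400 and 7400 bp, whereas Sox14, a factor of interneurons, had a domain of 20600 bp with 910 and 145 reads and no H3K4me3. Sox8, a SoxE factor, had the deepest H3K4me3 peak of the 4 with both, 1187 and 76 reads in 7400 bp, beside a domain of 3400 bp with 61 and 32.

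Among genes named in the tables, keratins and olfactory receptors, large families used by a few specialised cells, had H3K27me3 and almost no H3K4me3. The tables name genes near peaks, so members far from any peak are missing and the shares are not those of whole families. Of 43 keratin and keratin-associated genes 34 had H3K27me3 only (79.1%, against 8.93% of all genes with a symbol), 9 neither and 0 H3K4me3. Of 115 olfactory receptors 84 had H3K27me3 only (73.0%), 28 neither, 2 H3K4me3 only and 1 both. The H3K27me3-marked members of these families lay in 28 and 80 domains. Their median domain folds, taken over genes, were 2.91 and 2.84, against 3.02 for H3K27me3-only genes as a whole. The H3K27me3-marked Hox genes, which share 5 domains, had 7.88. Krt1 and Krt77, epidermal keratins, shared a domain of 38000 bp with 734 and 266 reads, and Olfr63 lay in one of 15400 bp with 398 and 114. Vomeronasal receptors had 14 of 26 in H3K27me3 only, 10 neither and 2 H3K4me3 only, and defensins 6 of 15 in H3K27me3 only and 9 neither. Cytochrome P450 genes had 12 of 27 in H3K27me3 only, 7 H3K4me3 only, 1 both and 7 neither. Cyp26a1 and Cyp26b1, which break down retinoic acid, had domains of 17400 and 19600 bp at folds of 6.28 and 4.19, and Cyp51 of sterol synthesis had H3K4me3 only. Members of such families are close in sequence, and how the authors treated reads that fit several places is not given in the sources used here.

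Promoter sequence was matched by symbol for 11284 of 14600 genes (77.3%), from RefSeq windows of 250 bases before to 50 after the start. The match is under 80% in all, and from 71.7% to 79.4% by state, so as a check over the states it is void, and the values describe the matched promoters only. RefSeq starts on GRCm38.p6 can also differ from the table's starts on mm9. The observed over expected CpG ratio had a median of 0.806 (quartiles 0.656 to 0.935) with H3K4me3 only and 0.749 (0.567 to 0.900) with both. It was 0.302 (0.143 to 0.547) with H3K27me3 only and 0.316 (0.169 to 0.60) with neither. CpG-rich windows, with a ratio above 0.6 and GC above 50%, made up 76.7%, 69.8%, 19.4% and 23.2% of these states in that order, against 65.6% of all matched promoters and 33.9% of all promoters in the RefSeq table.

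**Figure D5:**
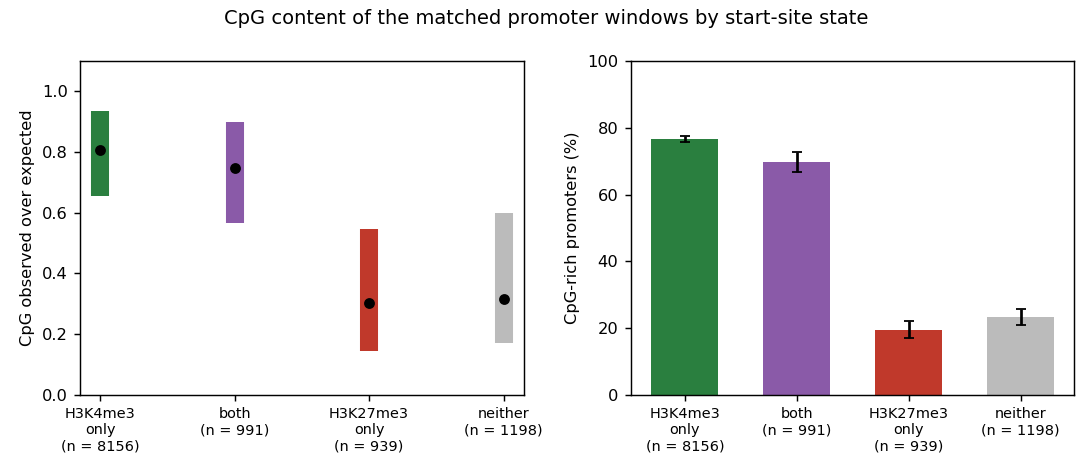
CpG observed over expected (left, medians with bars between the quartiles) and the percent of CpG-rich windows (right, bars with 95% exact binomial intervals) in the matched promoters of each state. H3K4me3 only and both lie at 76.7% and 69.8% CpG-rich, H3K27me3 only and neither at 19.4% and 23.2%.

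Within H3K27me3-only genes, the 182 matched CpG-rich promoters had a median domain fold of 3.82 (quartiles 2.93 to 4.84) and the 757 others 2.90 (2.40 to 3.62), at similar widths of 8400 and 8600 bp and input of 8.29 and 8.68 reads per kb. The printed promoters of Sox1, with a ratio of 1.07 over 300 bases, and of Olfr63, with 0.0992, lie far apart within this state. By class, 0 of 70 matched H3K27me3-only olfactory receptors and 1 of 28 such keratins were CpG-rich, against 16 of 20 ligands and 12 of 20 neuronal lineage factors with both marks. Within the H3K27me3-only state, CpG-rich promoters were 5 of 10 for ligands, 2 of 8 for neuronal lineage factors, 1 of 4 for brain patterning factors and 0 of 6 for Hox genes. The motif TATAAA, searched on both strands of the window, was in 6.14% of H3K4me3-only, 7.57% of both, 18.0% of H3K27me3-only and 12.5% of neither promoters. It was in 7.93% of all matched promoters and in 14.2% of all promoters in the RefSeq table, and a match is a description, not a site.

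Genes named whatever their state numbered 31, of which 26 were in the tables: 11 had H3K4me3 only, 8 both, 2 H3K27me3 only and 5 neither.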

How the data were processed

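Bowtie, SAMtools, SICER, FastQC and the build mm9 are named, without versions, in the submitters' processing notes. Which settings they ran with is not given in the sources used here. Per the file headers and values, the authors deposited for each peak the read count of the immunoprecipitate and of the input, a p-value, an FDR (under 0.001 in all listed peaks) and a ratio (fold) over input, with bounds on a 200 bp grid. The deposited fold was used only within a list. Peaks were called per library. The inputs were read through these counts alone, and absolute library totals are unknown. Columns of unknown samples numbered 0.

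A start site took the nearest peak within 1000 bp, the widest where several covered it. Overlap used bedtools 2.31.1 (at least 1 bp). Intervals are exact (Clopper-Pearson, 95%) and cover counting error only. Members, classes and the named genes were chosen with earlier results of these data known. There were 47 gene lists, 22 given by symbols (568 distinct symbols, 123 in none of the tables and 10 matched through an older RefSeq symbol of GRCm38.p6) and 25 by name pattern. Genes were named if they were anchor genes, had the 5 widest marking peaks of a state, had the up to 4 highest folds of a list and state, or lay nearest the distance limit; markers, printed promoters and other genes were picked as said. The distance step was checked on the deposited peaks, where 0 of 1000 distances per mark, sampled from 18778 genes, differed from a direct search. On simulated positions, 800 of 800 planted states were recovered. Alternatives changed the distance, the FDR limit, the gene set, the peak per gene, the overlap and the CpG limit. Scripts ran in Python 3.11.15 (scipy 1.17.1, numpy 2.4.6, pandas 2.3.3; plots, matplotlib 3.10.9). Some genes that this rule selects are not reported here.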

Additional observations from a re-analysis of the deposited data

How the results depend on the processing

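No paired analysis was possible because each mark has 1 NSC library and no result comes from a test. Leaving out a library was not possible for the same reason. Of 162 recomputed values 108 stayed within their counting interval, or within 1.5 times for counts, and 54 moved; of 90 counts of genes with both marks in a class 22 moved.

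With the peak that the gene tables name for each gene, instead of any listed peak, genes with H3K27me3 only numbered 1017 in place of 1997, with both 436 in place of 1601 and with neither 6781 in place of 3563. Median domain widths were then 11800 (H3K27me3 only) and 9600 bp (both), reads per kb 22.0 and 24.4, H3K4me3 reads per kb in genes with both 63.9, and the CpG ratio 0.404 (H3K27me3 only) and 0.519 (neither). With peaks at FDR under 1e-20, 803 genes had both; domain widths were 12200 and 10600 bp, reads per kb 21.9 and 25.0, H3K4me3 reads per kb in both 64.2, CpG ratios 0.402 and 0.780, and the overlapping shares 6.69% of H3K4me3 peaks and 11.7% of domains. With the peak required to cover the start site, 1039 genes had both; widths were 9600 and 9600 bp, reads per kb 19.5 and 23.6, H3K4me3 reads per kb in both 54.2, and CpG ratios 0.333 (H3K27me3 only) and 0.334 (neither).

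Within 500 bp, genes with both had 57.6 H3K4me3 and 22.8 H3K27me3 reads per kb and a domain of 8400 bp. Within 2000 bp, H3K4me3 reads per kb in both were 63.1, and H3K27me3 reads per kb 18.5 (H3K27me3 only) and 21.9 (both). With NSC-table genes alone, 2355 had neither (CpG ratio 0.338), and H3K27me3-only domains were 9600 bp at 19.4 reads per kb. Among genes with a symbol, 1304 had H3K27me3 only and 1670 neither, and H3K4me3-only peaks had 101 reads per kb. With 1 gene per set of peaks, H3K4me3-only peaks were 2200 bp at 98.9 reads per kb and H3K27me3-only domains 8200 bp at 18.4. Without chromosome 1, H3K4me3-only peaks had 99.6 reads per kb, and 10.2% of H3K4me3 peaks and 10.5% of domains overlapped. With 50% of the H3K4me3 peak covered, the shares were 9.16% and 9.05%. At the stricter CpG limit (ratio above 0.75, GC above 55%), chosen after seeing the data, CpG-rich promoters made up 52.6% (H3K4me3 only), 8.95% (H3K27me3 only), 47.2% (both) and 12.4% (neither). Leaving out peaks of fold under 2, also chosen after seeing the data, left 1489 genes with both. The causes of these shifts were not tested beyond the construction of each alternative.

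The counts of genes with both marks depend most on the rule. Over all genes, 436 of the 1601 with both had both by the gene tables' own peak, and 803 at FDR under 1e-20. By the gene tables' own peak they were 11 of 24 for neuronal lineage factors, 3 of 20 for brain patterning factors, 8 of 24 for ligands, 5 of 14 for Hox, 11 of 19 for Fox, 5 of 20 for potassium channels, 1 of 6 for neural progenitor genes, 2 of 9 for antagonists, 1 of 4 for effectors and 0 of 2 for receptors. At FDR under 1e-20 they were 11 for brain patterning factors, 14 for ligands, 4 for antagonists, 5 for Hox, 9 for potassium channels, 2 for neural progenitor genes, 1 for effectors and 0 for receptors. With the start site covered they were 13 for brain patterning factors, 12 for Fox, 1 for neural progenitor genes and 1 for receptors.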

Other observations

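Genes whose description in the tables holds the word homeobox, a set made after values were seen, had both marks in 58 of 141, H3K4me3 only in 38, H3K27me3 only in 38 and neither in 7. Their H3K27me3-marked members lay in 63 domains. Taken over genes, so that a shared domain counts once for each gene in it, the median domain width was 33500 bp and the median fold 6.17. Their 96 H3K4me3 peaks had a median width of 2200 bp.

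The 4178 genes without a symbol had H3K4me3 only in 32.3%, H3K27me3 only in 16.6%, both in 5.82% and neither in 45.3%. Of the 493 tabled genes on chromosome X, 79.1% had H3K4me3 only, 17.4% neither, 2.03% both and 1.42% H3K27me3 only. The chromosome had 135 H3K27me3 domains, against 759 to 2081 on chromosomes 2 to 19, where H3K27me3-only genes made up 4.55% to 15%. On chromosome 1, 43.5% of 1479 genes had H3K4me3 only, 31.1% neither, 14.6% H3K27me3 only and 10.8% both, with 3557 H3K4me3 peaks at a median fold of 2.46 against 4.33 for the median of chromosomes 2 to 19. Input depth on these chromosomes is given above, and its part in these shares was not tested.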
